A study of Mus musculus with 12 samples.

Results

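The genes described are 10 named components of 2 programmes of inflammatory cell death, Nlrp3, Nlrc4, Pycard, Casp1, Casp4, Gsdmd, Mlkl, Ripk1, Ripk3 and Casp8. They were measured in bone-marrow precursor B cells of mice 1 month old. Each gene was taken through the transcript cluster (the array's probe set for a gene) that carries its symbol in the platform annotation. A gene with several clusters was to be represented by the one chosen by its mean signal over all arrays, the highest, but each gene found had 1 cluster. Ripk1 is not the symbol of any cluster with 1 symbol in the annotation table used here, and clusters with several symbols were not used to name genes. This leaves 9 of the 10 genes, out of 19938 genes named by clusters with 1 symbol. The arrays fall into 3 groups of 4: Cd72+/-;Pax5+/- mice, which lack 1 copy each of the inhibitory B-cell co-receptor gene Cd72 and of the B-lineage transcription factor gene Pax5; Pax5+/- mice, which lack 1 copy of Pax5; and WT mice. In the titles the mutant cells of either genotype are termed preleukemic precursor B-cells and the WT cells pro-B cells. The naming of the cells therefore differs in each comparison against WT. By the labels all animals were kept free of specific pathogens. A change between the mutants is, throughout, that of Cd72+/-;Pax5+/- over Pax5+/-. The series title concerns joint loss of Pax5 and Cd72 in leukemia of B cells, and the comparisons ask how the death programmes' transcripts differ with each loss. The labels give neither the making of the alleles nor the animal behind each array. The p-values therefore reflect array-to-array spread, possibly technical in part.

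An inflammasome is a cytosolic complex in which a sensor such as Nlrp3 or Nlrc4 recruits, often through the adaptor Pycard (also called ASC), the protease Casp1. Casp1, or Casp4 when it binds bacterial lipopolysaccharide directly, cuts the pore-forming protein Gsdmd, and the cell dies by pyroptosis. Necroptosis runs through the kinases Ripk1 and Ripk3 to the pseudokinase Mlkl, which permeabilises the plasma membrane, and Casp8 holds this route in check while also starting apoptosis. These genes are best known from macrophages and neutrophils, and lymphoid cells express several of them.

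Promoter windows are shown for 5 of the genes: Mlkl and its kinase Ripk3, both highest in Pax5+/-, Nlrp3, which had the widest gap between the mutants, and Casp1 and Casp4, neighbours on chromosome 9 of which Casp1 passed the test against WT and Casp4 did not. The windows are RefSeq sequence of build GRCm38.p6, from 250 bases before to 50 bases after the annotated start, written 5′ to 3′ on the strand of the gene, with capitals marking matches to the searched letters. They are chr8:111338156-111338455 on the minus strand for Mlkl, chr14:55788808-55789107 on the minus strand for Ripk3, chr11:59542436-59542735 on the plus strand for Nlrp3 (the first of 2 windows), chr9:5298267-5298566 on the plus strand for Casp1 and chr9:5308599-5308898 on the plus strand for Casp4 (the first of 2 windows).
Mlkl: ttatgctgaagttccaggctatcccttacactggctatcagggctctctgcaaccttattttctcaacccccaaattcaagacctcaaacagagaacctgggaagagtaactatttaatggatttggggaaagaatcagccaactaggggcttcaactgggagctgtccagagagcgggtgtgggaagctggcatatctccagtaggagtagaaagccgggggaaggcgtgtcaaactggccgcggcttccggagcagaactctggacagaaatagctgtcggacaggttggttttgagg
Ripk3: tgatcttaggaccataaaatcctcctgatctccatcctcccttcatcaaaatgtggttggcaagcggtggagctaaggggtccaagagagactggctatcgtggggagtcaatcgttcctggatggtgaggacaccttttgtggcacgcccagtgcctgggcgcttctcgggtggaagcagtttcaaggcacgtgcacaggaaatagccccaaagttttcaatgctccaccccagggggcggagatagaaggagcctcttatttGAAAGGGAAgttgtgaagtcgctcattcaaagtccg
Nlrp3: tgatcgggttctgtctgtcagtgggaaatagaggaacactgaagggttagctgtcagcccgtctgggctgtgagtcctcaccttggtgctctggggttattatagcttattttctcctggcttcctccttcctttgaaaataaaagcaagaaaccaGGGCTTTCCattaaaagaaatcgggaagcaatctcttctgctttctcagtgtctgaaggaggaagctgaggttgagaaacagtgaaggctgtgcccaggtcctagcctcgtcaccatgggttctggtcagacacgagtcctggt
Casp1: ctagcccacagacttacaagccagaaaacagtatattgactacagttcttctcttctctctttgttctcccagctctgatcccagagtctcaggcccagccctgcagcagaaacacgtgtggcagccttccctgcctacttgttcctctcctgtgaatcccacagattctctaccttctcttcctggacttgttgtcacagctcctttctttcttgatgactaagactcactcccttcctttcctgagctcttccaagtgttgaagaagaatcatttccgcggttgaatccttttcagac
Casp4: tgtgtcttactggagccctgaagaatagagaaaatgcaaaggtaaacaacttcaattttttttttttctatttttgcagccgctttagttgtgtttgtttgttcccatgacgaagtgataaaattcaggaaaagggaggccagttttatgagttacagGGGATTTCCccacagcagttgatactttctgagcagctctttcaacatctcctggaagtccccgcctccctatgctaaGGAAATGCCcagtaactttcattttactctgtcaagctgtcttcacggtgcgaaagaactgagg
The letters searched on both strands were GGNNTTTCC for an NF-kB site, GAAANNGAA for the core of an interferon-stimulated response element, TTCNNNGAA for a STAT site and GCGTGAC for part of the Pax5 consensus. They occur in 5.83%, 8.53%, 8.33% and 2.1% of the 32544 promoter windows in the table. Of the 8 measured genes with a window, Nlrp3 and Casp4 held the NF-kB letters and Ripk3 the interferon-response letters, while Mlkl, Casp1, Nlrc4, Pycard and Casp8 held none of the searched letters. The match in Nlrp3 begins 94 bases before the start, those in Casp4 92 bases and, on the opposite strand, 14 bases before it, and that in Ripk3 14 bases after it. A match describes the letters in these windows and says nothing of whether a factor binds. Gsdmd has no window in the table.

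Array medians ran from 6.91 to 7.005 on the log2 scale. Pro-B markers were high throughout, with a mean over 11 measured markers of 11.34 to 11.52 in Cd72+/-;Pax5+/-, 11.63 to 11.75 in Pax5+/- and 10.95 to 11.89 in WT. Pax5 averaged 11.2 ± 0.0835 in Cd72+/-;Pax5+/-, 10.97 ± 0.26 in Pax5+/- and 11.57 ± 0.148 in WT, and Cd72 averaged 7.51 ± 0.135 in Cd72+/-;Pax5+/-, 10.19 ± 0.111 in Pax5+/- and 8.90 ± 0.51 in WT (log2 signal, SD, n = 4). The change of Pax5 against WT passed in Pax5+/- (limma adjusted p = 0.0051) and did not in Cd72+/-;Pax5+/- (limma adjusted p = 0.0781). Xist lay between 11.75 and 11.9 in Cd72+/-;Pax5+/-, against at most 5.38 in Pax5+/- and 5.52 in WT. The Y-linked gene Uty was at most 5.19 in Cd72+/-;Pax5+/-, against at least 9.26 in Pax5+/- and 8.85 in WT. The genotype of Cd72+/-;Pax5+/- and the sex of its arrays therefore cannot be told apart. Arrays also paired, most clearly in WT: WT arrays 5 and 7 differed by an SD of 0.113 over all clusters and WT arrays 6 and 8 by 0.123, against 0.261 to 0.27 for the other WT pairs. For Pax5+/- arrays 1 and 3 it was 0.179 and for 2 and 4 0.13, against 0.192 to 0.276. For Cd72+/-;Pax5+/- arrays 9 and 10 it was 0.125 and for 11 and 12 0.128, against 0.132 to 0.187, a small gap. The labels name no pairs, and these closest pairs were picked from the same values. The mean of 8 stromal markers was 8.85 and 8.87 in WT arrays 5 and 7 but 8.06 in both WT arrays 6 and 8, 8.88 and 8.96 in Pax5+/- arrays 1 and 3 but 7.53 and 7.56 in Pax5+/- arrays 2 and 4, and 7.04 to 7.47 in Cd72+/-;Pax5+/-. Counts are therefore also given with the closest pairs averaged and without either set of these arrays.

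**Figure D1:**
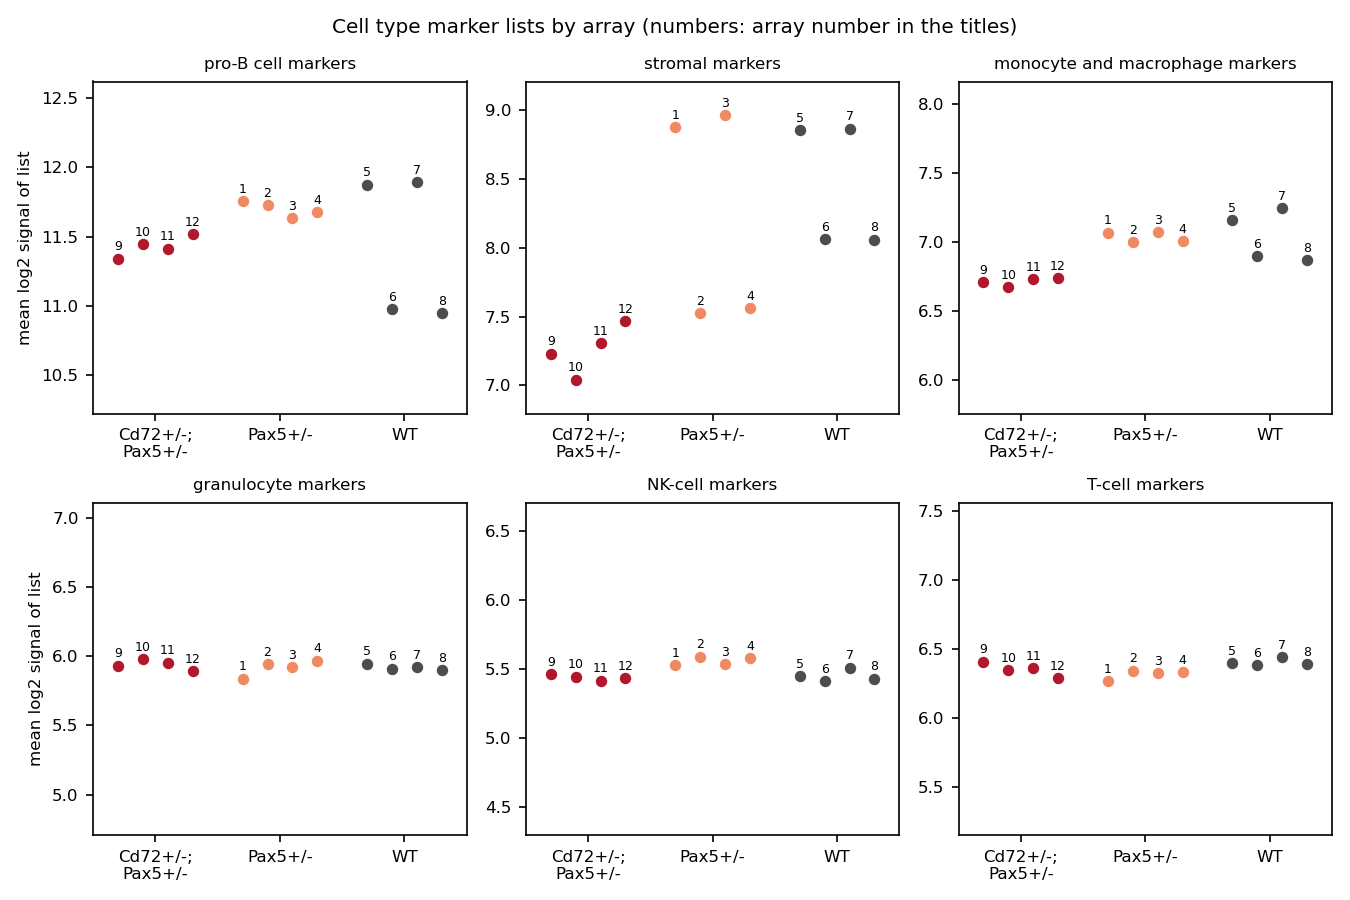
Mean log2 signal of 6 lists of cell type markers, 1 point per array, with the array number above each point, for Cd72+/-;Pax5+/-, Pax5+/- and WT. The stromal list divides the Pax5+/- and WT arrays into pairs, from 7.53 to 8.96 in Pax5+/- and from 8.06 to 8.87 in WT, while the granulocyte list stays between 5.84 and 5.98 on all arrays.

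Pax5+/- arrays had higher transcripts of the necroptosis executor, of the pyroptosis pore and of Nlrp3 than WT arrays. Of the 9 genes, 6 rose in Pax5+/- against WT (Mlkl, Nlrp3, Casp1, Ripk3, Gsdmd and Pycard), none fell, and Nlrc4, Casp4 and Casp8 did not pass (limma, Benjamini-Hochberg adjusted p under 0.05 over 23410 clusters). The same 6 genes had an unadjusted p under 0.05, as had 18.0% of all clusters. Over all clusters 7.47% passed in either direction and 4.28% as higher, with 3.2% as lower. The median log2 change was 0.58 over the 9 genes and -0.005 over all clusters. By the study's stated threshold, counted as an unadjusted p under 0.05 with a change over 2-fold, 2 of the 9 passed, Mlkl and Nlrp3, against 0.957% of all clusters.

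In Cd72+/-;Pax5+/- the adaptor Pycard was at its highest and Nlrp3 at its lowest of the 3 groups. Against WT, Mlkl, Casp1 and Pycard rose and Nlrp3 fell, while Gsdmd, Ripk3, Nlrc4, Casp4 and Casp8 did not pass, against 7.78% of all clusters in either direction, 4.12% higher and 3.66% lower. The median log2 change was 0.19 over the 9 genes and 0.0025 over all clusters, and no gene of the 9 met the study's threshold, against 0.914% of all clusters. Of the 9 genes, 7 had an unadjusted p under 0.05, as had 19.7% of all clusters. Against Pax5+/-, Nlrp3, Mlkl, Ripk3 and Gsdmd fell and Pycard rose, and 4 did not pass, against 9.79% of all clusters, 4.44% higher and 5.35% lower. The median log2 change was -0.20 over the 9 genes and 0.005 over all clusters, and Nlrp3 and Mlkl met the study's threshold, against 1.2% of all clusters. Of the 9 genes, 6 had an unadjusted p under 0.05, as had 22.2% of all clusters. The comparisons share arrays, so their values are given side by side for each gene and no overlap between them is read. The arrays of both groups did not overlap for 6 of the 9 genes in each comparison, against 10.7% of all clusters in Pax5+/- against WT, 14.8% in Cd72+/-;Pax5+/- against WT and 18.5% between the mutants.

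With the closest pairs averaged, 4 genes kept their call in Pax5+/- against WT (Mlkl, Nlrp3, Ripk3 and Gsdmd), 3 in Cd72+/-;Pax5+/- against WT (Mlkl, Nlrp3 and Pycard) and 3 between the mutants (Mlkl, Nlrp3 and Ripk3). Without Pax5+/- arrays 1 and 3 and WT arrays 5 and 7, 5 genes passed in Pax5+/- against WT, 6 in Cd72+/-;Pax5+/- against WT and 5 between the mutants. Without Pax5+/- arrays 2 and 4 and WT arrays 6 and 8, the counts in these comparisons were 5, 4 and 7. Each of these sets leaves 1 close pair in the Pax5+/- and WT groups, whose spread is small by construction. Of 57 other genes of these pathways, 8, 4 and 10 passed in these comparisons with all arrays. Without the first set 22, 16 and 19 of them passed, and without the second 9, 23 and 19. The share of all clusters passing in these alternative fits is not given here, so their counts are not read as a result about the 9 genes.

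**Figure D2:**
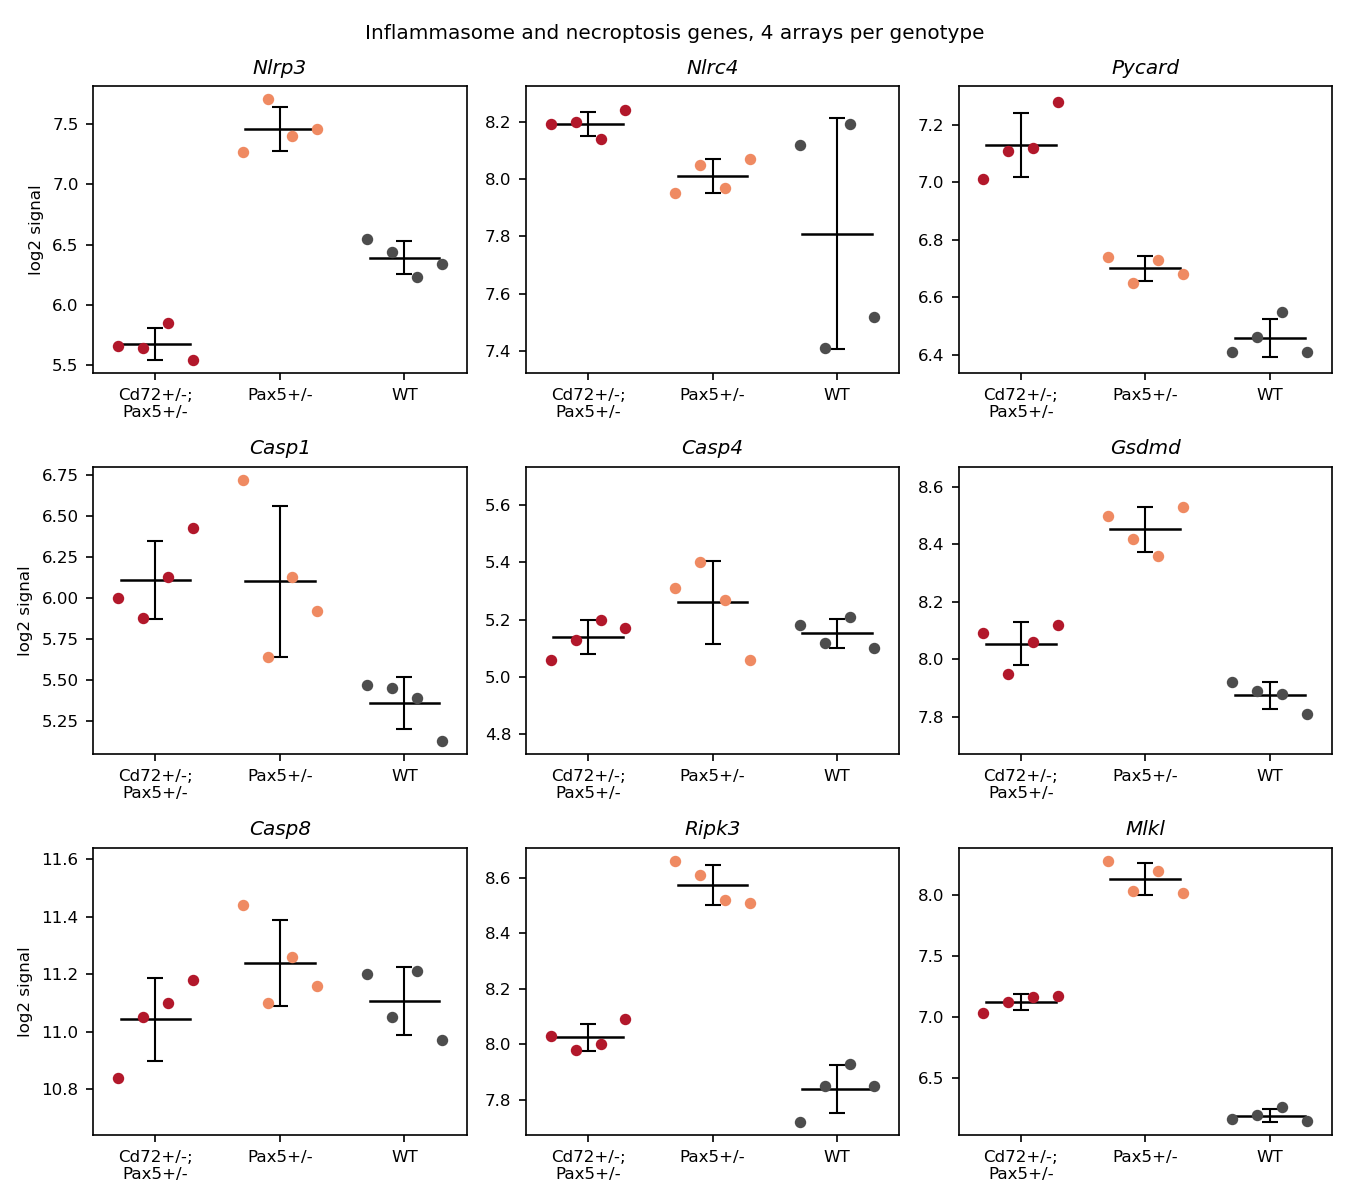
Log2 signal of the 9 genes on each array (points), with the group mean (line) and SD (bars, n = 4), for Cd72+/-;Pax5+/-, Pax5+/- and WT. Each panel has its own axis, and signals are not comparable between genes. Mlkl, Ripk3, Gsdmd and Nlrp3 have their highest points in Pax5+/-, Pycard has them in Cd72+/-;Pax5+/-, and the WT arrays of Nlrc4 divide into 7.41 and 7.52 against 8.12 and 8.19.

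Nlrp3 senses potassium efflux and other signs of cell damage, and its transcript is itself induced by inflammatory signals. It read 5.66, 5.64, 5.85 and 5.54 on Cd72+/-;Pax5+/- arrays 9 to 12, 7.27, 7.71, 7.40 and 7.46 on Pax5+/- arrays 1 to 4, and 6.55, 6.44, 6.23 and 6.34 on WT arrays 5 to 8 (log2 signal, with arrays in this order for every gene). No array of a group reached into another group. Nlrp3 rose by 1.07 in Pax5+/- against WT (SE 0.0982, 2.1-fold, limma adjusted p = 1.45e-05) and fell by 0.72 in Cd72+/-;Pax5+/- against WT (SE 0.0982, 1.64-fold lower, limma adjusted p = 0.000464). Between the mutants the change was -1.79 (3.45-fold lower in Cd72+/-;Pax5+/-, limma adjusted p = 1.22e-07). All 20 alternatives that kept the threshold of an adjusted p under 0.05 kept these 3 calls and their directions (alternatives are counted in this way for each gene). The fall in Cd72+/-;Pax5+/- against WT, being under 2-fold, missed the study's own threshold.

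Nlrc4 assembles the inflammasome that answers bacterial flagellin and secretion-system proteins, which NAIP proteins detect for it. It read 8.19, 8.20, 8.14 and 8.24 in Cd72+/-;Pax5+/-, 7.95, 8.05, 7.97 and 8.07 in Pax5+/-, and 8.12, 7.41, 8.19 and 7.52 in WT. The mutant arrays were tight, and WT arrays 6 and 8 were low while WT arrays 5 and 7 lay near the mutants. The change against WT of 0.38 in Cd72+/-;Pax5+/- (limma adjusted p = 0.158) and of 0.20 in Pax5+/- (limma adjusted p = 0.564) did not pass. Without WT arrays 5 and 7 and Pax5+/- arrays 1 and 3, the same changes were 0.73 (limma adjusted p = 6.09e-06) and 0.595 (limma adjusted p = 5.15e-05). Without WT arrays 6 and 8 and Pax5+/- arrays 2 and 4, the change in Pax5+/- was -0.195 (limma adjusted p = 0.108), so its direction rests on which WT pair is used. The stromal and pro-B marker means divide the WT arrays in the same way, and their part in the Nlrc4 values was not tested. Without WT array 7 alone, the change in Cd72+/-;Pax5+/- passed at 0.51 (limma adjusted p = 0.0393). Nlrc4 had groups that did not overlap between the mutants, at a change of 0.18 that did not pass (limma adjusted p = 0.537) and did pass with only those groups in the fit (limma adjusted p = 0.0311).

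Pycard joins sensors to Casp1 by polymerising into a filament, the ASC speck. It read 7.01, 7.11, 7.12 and 7.28 in Cd72+/-;Pax5+/-, 6.74, 6.65, 6.73 and 6.68 in Pax5+/-, and 6.41, 6.46, 6.55 and 6.41 in WT. The groups stood in steps without overlap, Cd72+/-;Pax5+/- highest and WT lowest. It rose by 0.67 in Cd72+/-;Pax5+/- against WT (SE 0.0586, 1.59-fold, limma adjusted p = 9.56e-06) and by 0.43 against Pax5+/- (limma adjusted p = 0.000339). The smaller rise of 0.24 in Pax5+/- against WT (1.18-fold, limma adjusted p = 0.0229) held its call in 10 of 20 alternatives and ended without Pax5+/- array 1 or 3 or WT array 5, 6 or 8. With the closest pairs averaged, the rise against Pax5+/- ended too (limma adjusted p = 0.0706). Of the 9 genes, Pycard was the only 1 that passed as higher between the mutants.

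Casp1, the protease that matures interleukin-1 beta and interleukin-18 and cuts Gsdmd, read 6.00, 5.88, 6.13 and 6.43 in Cd72+/-;Pax5+/-, 6.72, 5.64, 6.13 and 5.92 in Pax5+/-, and 5.47, 5.45, 5.39 and 5.13 in WT. All 8 mutant arrays lay above all WT arrays, and the Pax5+/- arrays spread most, through array 1. Casp1 rose by 0.75 in Cd72+/-;Pax5+/- (SE 0.191, 1.68-fold, limma adjusted p = 0.0309) and by 0.74 in Pax5+/- (SE 0.191, 1.67-fold, limma adjusted p = 0.0326), each against WT. These calls were near the threshold: of 19 alternatives, 11 kept the call in Cd72+/-;Pax5+/- (highest limma adjusted p = 0.359) and 10 in Pax5+/- (highest limma adjusted p = 0.384). The call in Cd72+/-;Pax5+/- ended without Cd72+/-;Pax5+/- array 9, 11 or 12 or WT array 5, 7 or 8, and the call in Pax5+/- without Pax5+/- array 3 or WT array 6, 7 or 8. The Casp1 difference between the mutants was 0.0075 (limma adjusted p = 0.986), with an SE of 0.191 that leaves room for a difference in either direction.

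Casp4, the mouse protease also known as caspase-11, read 5.06, 5.13, 5.20 and 5.17 in Cd72+/-;Pax5+/-, 5.31, 5.40, 5.27 and 5.06 in Pax5+/-, and 5.18, 5.12, 5.21 and 5.10 in WT. All groups overlapped, and no comparison passed (limma adjusted p from 0.333 to 0.957). Its cluster's mean of 5.184 lay below the lower quartile of all clusters, 5.609, and the table holds no detection call, so a change of a transcript near background may not be visible. Casp1 averaged 5.857 over all arrays, little above that quartile.

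Gsdmd, whose cut amino-terminal part forms the pyroptotic pore, read 8.09, 7.95, 8.06 and 8.12 in Cd72+/-;Pax5+/-, 8.50, 8.42, 8.36 and 8.53 in Pax5+/-, and 7.92, 7.89, 7.88 and 7.81 in WT. The groups did not overlap, with Pax5+/- highest. Gsdmd rose by 0.58 in Pax5+/- against WT (SE 0.0531, 1.49-fold, limma adjusted p = 1.46e-05), a call kept in all 20 alternatives at this threshold and not by the study's 2-fold threshold. Against WT, Cd72+/-;Pax5+/- showed a change of 0.18 short of the threshold (limma adjusted p = 0.0609), which passed without Cd72+/-;Pax5+/- array 10 (limma adjusted p = 0.0383). Gsdmd fell by 0.40 between the mutants (1.32-fold lower, limma adjusted p = 0.00029), and this call ended with the closest pairs averaged (limma adjusted p = 0.0522).

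**Figure D3:**
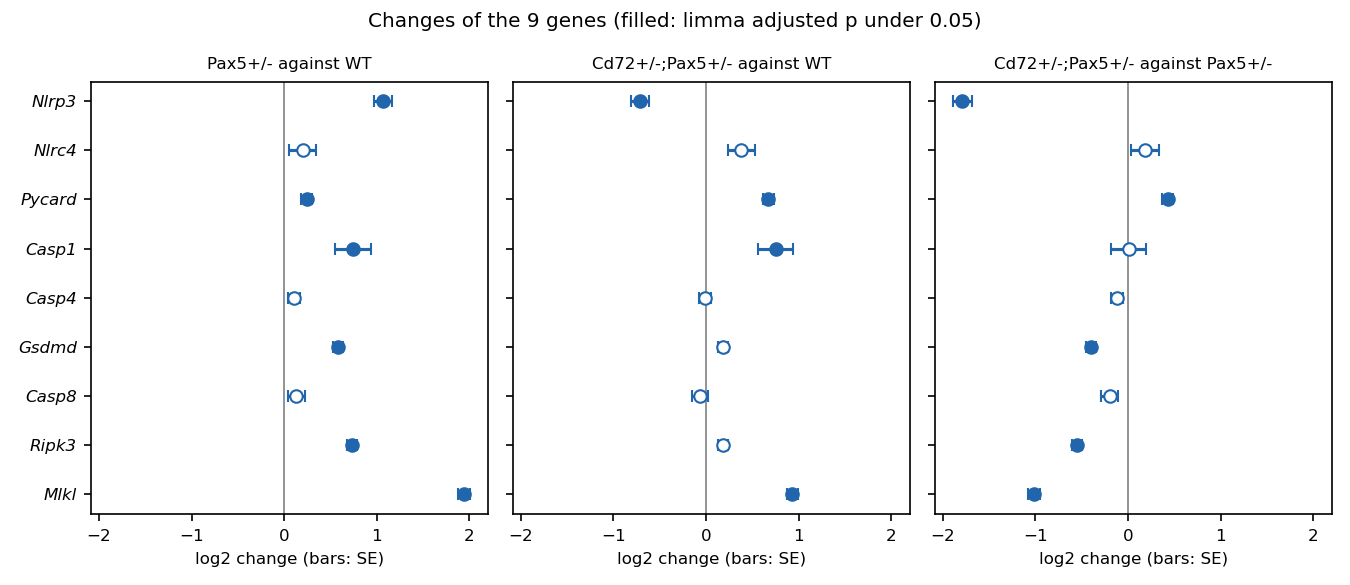
Log2 change of the 9 genes in the 3 comparisons, with the moderated standard error as bars and filled points for a limma adjusted p under 0.05. Pax5+/- against WT holds changes of 0.11 to 1.945, all above 0, and Nlrp3 lies at 1.07, -0.72 and -1.79 in the panels from left to right.

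Casp8 is the protease that starts apoptosis below death receptors and cuts Ripk1 and Ripk3. It read 10.84, 11.05, 11.10 and 11.18 in Cd72+/-;Pax5+/-, 11.44, 11.10, 11.26 and 11.16 in Pax5+/-, and 11.20, 11.05, 11.21 and 10.97 in WT. The groups overlapped in each comparison and no change passed, the nearest being -0.20 between the mutants (SE 0.0901, unadjusted p = 0.0483, limma adjusted p = 0.221). That change passed without Pax5+/- arrays 2 and 4 and WT arrays 6 and 8 (-0.31, limma adjusted p = 0.0403).

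Ripk3, the kinase that phosphorylates Mlkl, read 8.03, 7.98, 8.00 and 8.09 in Cd72+/-;Pax5+/-, 8.66, 8.61, 8.52 and 8.51 in Pax5+/-, and 7.72, 7.85, 7.93 and 7.85 in WT. The groups were apart, Pax5+/- highest by a wide gap and Cd72+/-;Pax5+/- just above WT. Ripk3 rose by 0.74 in Pax5+/- against WT (SE 0.0548, 1.67-fold, limma adjusted p = 2.12e-06) and fell by 0.55 between the mutants (SE 0.0548, 1.46-fold lower, limma adjusted p = 2.32e-05), both in all 20 alternatives at this threshold and neither by the study's 2-fold threshold. Against WT, Cd72+/-;Pax5+/- showed a change of 0.19 short of the threshold (limma adjusted p = 0.0581), which passed without WT array 7 (limma adjusted p = 0.0421).

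Mlkl, the executor of necroptosis, had the largest change of the 9 genes. It read 7.03, 7.12, 7.16 and 7.17 in Cd72+/-;Pax5+/-, 8.28, 8.03, 8.20 and 8.02 in Pax5+/-, and 6.16, 6.19, 6.26 and 6.14 in WT. The 3 groups stood about 1 log2 unit apart with no overlap, and no group spanned more than 0.26. Mlkl rose by 1.945 in Pax5+/- against WT (SE 0.0633, 3.85-fold, limma adjusted p = 1.58e-09), the rank 8 of 23410 clusters by p. It rose by 0.93 in Cd72+/-;Pax5+/- against WT (1.91-fold, limma adjusted p = 1.13e-06) and changed by -1.01 between the mutants (2.02-fold lower, limma adjusted p = 3.78e-07). Over 20 alternatives the rise in Pax5+/- lay between 1.86 and 2.03, and each of the 3 calls held in all of them at an adjusted p under 0.05. The rise in Cd72+/-;Pax5+/- against WT, being under 2-fold, missed the study's threshold. Exact permutation of the arrays gave p = 0.0286 for each of these comparisons, two-sided, the smallest that 4 against 4 arrays allow.

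Other inflammasome sensors passed in both directions. Of 9 measured of 11 listed, 3 rose and 1 fell in Pax5+/- against WT, 1 rose and 2 fell in Cd72+/-;Pax5+/- against WT, and 1 rose and 5 fell between the mutants. Over all clusters 7.47%, 7.78% and 9.79% passed in these comparisons in either direction. Naip2, which detects bacterial secretion-system rods for Nlrc4, averaged 6.315 ± 0.168 in Cd72+/-;Pax5+/-, 7.39 ± 0.035 in Pax5+/- and 6.54 ± 0.107 in WT (log2 signal, SD, n = 4). Its change was 0.85 in Pax5+/- against WT (limma adjusted p = 1.52e-05) and -1.07 between the mutants (limma adjusted p = 1.68e-06). The flagellin sensors Naip5 and Naip6 rose by 0.63 and 0.46 in Pax5+/- against WT and fell by 0.995 and 0.70 between the mutants. Naip2, Naip5 and Naip6 are close relatives in sequence, so their probes may read each other's transcripts. Aim2, the sensor of cytosolic DNA, fell by 2.44 in Cd72+/-;Pax5+/- against WT (7.735 ± 0.209 against 10.18 ± 0.0574, limma adjusted p = 3.88e-09) and by 0.67 in Pax5+/- against WT (limma adjusted p = 0.00041). Nlrp1a fell by 1.245 in Cd72+/-;Pax5+/- against WT and its close relative Nlrp1b rose by 0.32. Between the mutants the change was -1.77 for Aim2 (limma adjusted p = 7.13e-08), -0.94 for Nlrp1a (limma adjusted p = 0.000167) and 0.34 for Nlrp1b (limma adjusted p = 0.00102). With the closest pairs averaged, the calls of Naip2 in Pax5+/-, of Aim2 and Nlrp1a in Cd72+/-;Pax5+/- against WT, and of Aim2, Naip2 and Naip5 between the mutants held, and the others in the pathway lists ended. The Naip6 call in Pax5+/- against WT also ended with the pairs as a random block and without Pax5+/- array 2 or 4 or WT array 6 or 8.

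The cytokines and other effectors of pyroptosis were mostly low in all groups. Of 10 measured of 11, none passed limma against WT in either mutant, and Ninj1, which ruptures the membrane of dying cells, rose by 0.22 between the mutants. At an unadjusted p under 0.05, 0 of the 10 passed in Pax5+/- against WT, against 18.0% of all clusters. In Cd72+/-;Pax5+/- against WT 2 passed, against 19.7% of all clusters. These were Ninj1 and Il1rn, which were looked up for this count. Between the mutants 2 passed, against 22.2% of all clusters. In each group 6 of the 10 lay below the lower quartile of all clusters. Il1b averaged 5.48 ± 0.144 in Cd72+/-;Pax5+/-, 5.525 ± 0.0971 in Pax5+/- and 5.51 ± 0.0826 in WT, and Il18 averaged 5.27 ± 0.0981 in Cd72+/-;Pax5+/-, 5.32 ± 0.151 in Pax5+/- and 5.365 ± 0.2 in WT. Among 8 measured triggers and regulators, P2rx7, the ATP-gated channel that triggers Nlrp3, rose by 0.51 in Cd72+/-;Pax5+/- against WT (9.66 ± 0.0356 against 9.15 ± 0.049, limma adjusted p = 0.000554) and by 0.45 against Pax5+/-, and Card6 rose by 0.44 in Pax5+/- against WT (limma adjusted p = 0.0421). The Card6 call ended with the closest pairs as a random block, with both renormalizations and without Pax5+/- array 2 or 4 or WT array 5 or 7. The Ninj1 call also ended with that block, and without Cd72+/-;Pax5+/- array 9, 10 or 12 or Pax5+/- array 2, 3 or 4.

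Of 23 genes of the TNF-receptor complex and of necroptosis besides the genes above, 21 did not pass in Pax5+/- against WT, 23 in Cd72+/-;Pax5+/- against WT and 22 between the mutants. An unadjusted p under 0.05 was found for 5 of the 23 in Pax5+/- against WT and 8 in Cd72+/-;Pax5+/- against WT, where limma called none. Between the mutants it was found for 11. Over all clusters the shares were 18.0%, 19.7% and 22.2% in these comparisons. Otulin, a deubiquitinase of linear chains, rose by 0.18 and the mitochondrial phosphatase Pgam5 fell by 0.26 in Pax5+/-, and Fadd, the adaptor of Casp8, fell by 0.27 between the mutants. With the closest pairs as a random block the calls of Otulin and Fadd ended. The Otulin call also ended without Pax5+/- array 2 or WT array 6, 7 or 8, and the Fadd call without Cd72+/-;Pax5+/- array 9 or 10 or Pax5+/- array 1 or 2. Zbp1, a nucleic-acid sensor that engages Ripk3, averaged 6.33 ± 0.123 in Cd72+/-;Pax5+/-, 6.40 ± 0.109 in Pax5+/- and 6.40 ± 0.067 in WT. Among 7 measured apoptotic caspases and regulators, Casp6 rose by 1.005 in Pax5+/- against WT (8.18 ± 0.22 against 7.18 ± 0.335, limma adjusted p = 0.000979) and fell by 1.105 between the mutants (limma adjusted p = 0.000382). Over the 57 measured genes of these lists, 6 rose and 2 fell in Pax5+/- against WT, 2 rose and 2 fell in Cd72+/-;Pax5+/- against WT, and 3 rose and 7 fell between the mutants. These are 14.0%, 7.02% and 17.5% of the 57 genes, against 7.47%, 7.78% and 9.79% of all clusters in these comparisons, so the share in Cd72+/-;Pax5+/- against WT lay near that of all clusters. Their median log2 changes in these comparisons were -0.005, -0.045 and -0.065.

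**Figure D4:**
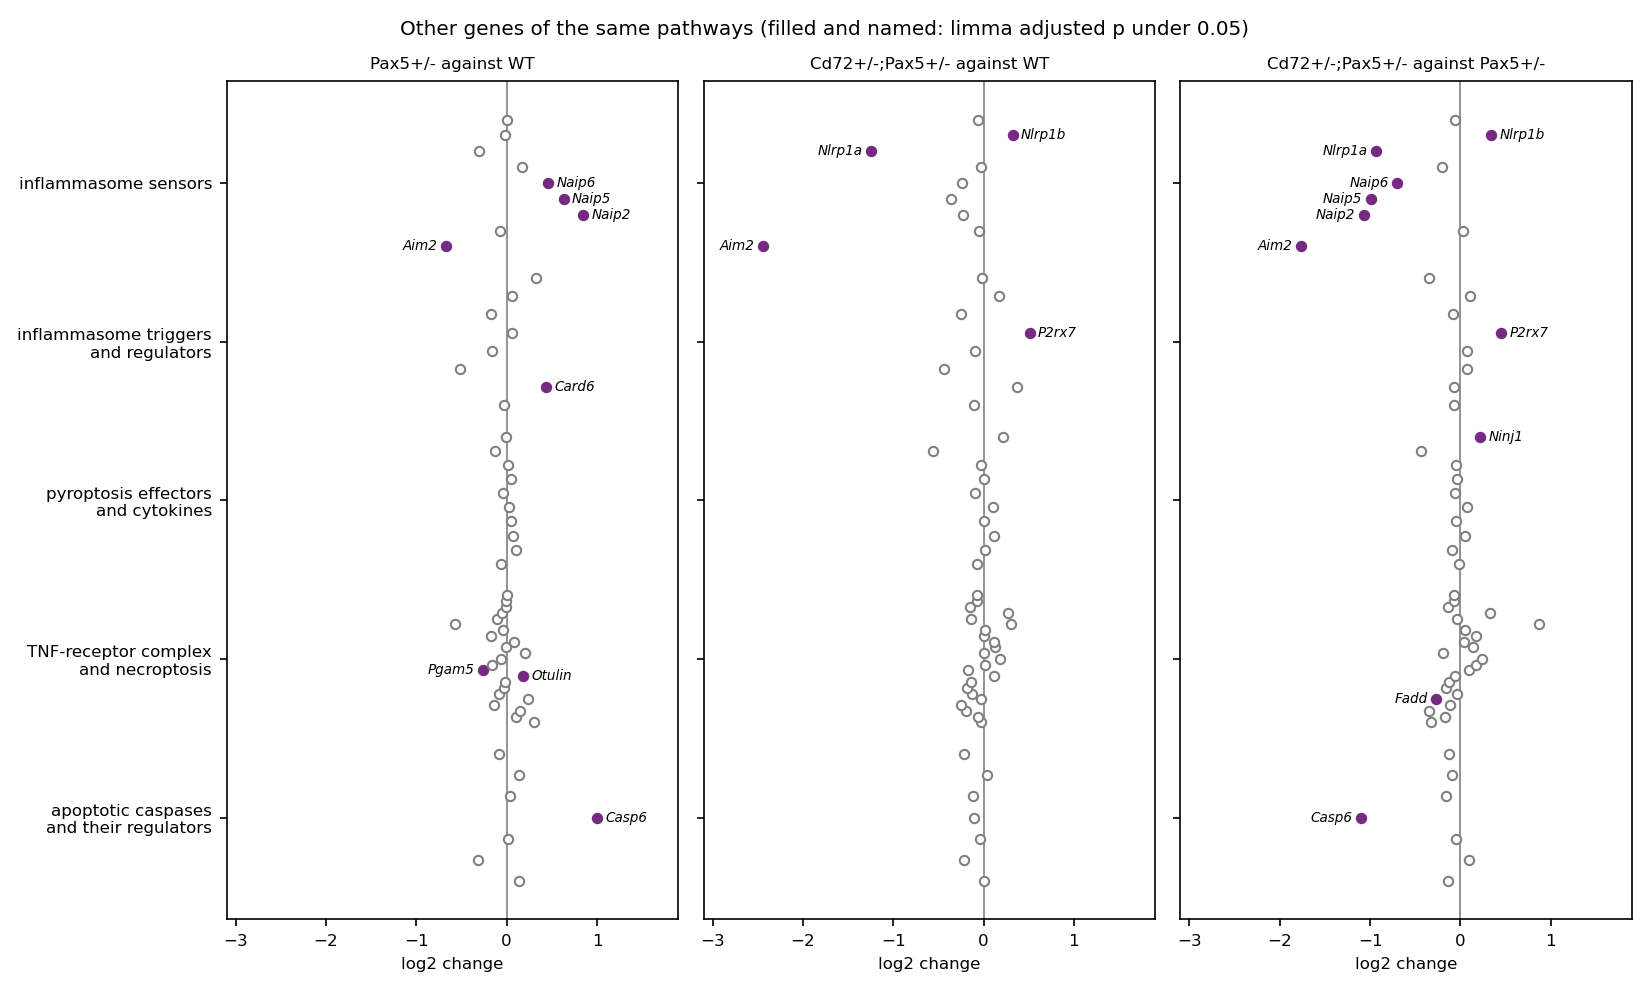
Log2 change of 57 other genes of the same pathways in the 3 comparisons, 1 point per gene, arranged by list down the page, with filled and named points for a limma adjusted p under 0.05. Naip2, Naip5 and Naip6 lie right of 0 in Pax5+/- against WT and left of 0 in Cd72+/-;Pax5+/- against Pax5+/-, and most open points lie close to 0.

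Cells other than precursor B cells express several of these genes, and in RNA of a cell pool fewer cells of a type and less RNA per cell cannot be told apart. The mean of 8 monocyte and macrophage markers was 6.675 to 6.74 in Cd72+/-;Pax5+/-, 7.00 to 7.07 in Pax5+/- and 6.87 to 7.245 in WT, with 6, 5 and 5 of the 8 below the median of all clusters in these groups. Of these markers limma called none in Pax5+/- against WT (1 at an unadjusted p under 0.05, Cx3cr1, which averaged 6.70 ± 0.025 in Pax5+/- and 6.54 ± 0.0741 in WT without overlap, limma adjusted p = 0.117). In Cd72+/-;Pax5+/- against WT Ccr2 fell by 3.58 and Cd68 rose by 0.36. Between the mutants Ccr2 fell by 3.915 (limma adjusted p = 8.38e-07) and Cd68 rose by 0.48 (limma adjusted p = 0.000935). The other 6 of these 8 markers did not pass in either comparison. The list's median log2 change was 0.065 in Cd72+/-;Pax5+/- against WT and 0.03 between the mutants. The NK-cell marker Nkg7 rose by 0.54 in Pax5+/- against WT (limma adjusted p = 0.0249) and fell by 0.69 between the mutants (limma adjusted p = 0.00433). The other 7 of 8 NK-cell markers did not pass in either of these comparisons. Of 11 granulocyte markers limma called none in any comparison, 0 had an unadjusted p under 0.05, and their mean lay between 5.84 and 5.98 on all arrays. Of 8 stromal markers limma called none in Pax5+/- against WT (0 at an unadjusted p under 0.05) and 3 fell in Cd72+/-;Pax5+/- against WT, among them Cxcl12 by 1.92 and Sparc by 1.97. In Cd72+/-;Pax5+/- against WT 7 of these 8 had an unadjusted p under 0.05, against 19.7% of all clusters. The stromal list's median log2 change there was -1.345. Between the mutants Cxcl12 fell by 1.58 (limma adjusted p = 0.0328), and 5 of the 8 stromal markers had an unadjusted p under 0.05, against 22.2% of all clusters. The rise of Mlkl in Pax5+/- against WT was 1.86 without Pax5+/- arrays 1 and 3 and WT arrays 5 and 7, which had the higher stromal means, and 2.03 without Pax5+/- arrays 2 and 4 and WT arrays 6 and 8. The fall of Nlrp3 in Cd72+/-;Pax5+/- against WT was 0.72 on the log2 scale without either set. The part of the stromal, monocyte and NK-cell markers in these results was not tested.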

How the data were processed

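RNA from precursor B cells purified from marrow, termed pro-B cells in the WT titles, was hybridised to 12 Affymetrix Mouse Gene ST arrays, version 1.0. The deposited values are log2 signals for 28944 transcript clusters. The labels' design text names the authors' software as Transcriptome Analysis Console 4.0.3, and how background was corrected and arrays normalized is not given in the sources used here. The platform annotation pairs 21789 clusters with 1 gene symbol, 1621 with several and 5534 with none. The 23410 clusters with a symbol were tested, and genes were named only from clusters with 1 symbol.

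A mean per group was fitted to all 12 arrays with limma 3.58.1 in R 4.3.3, with empirical Bayes variances (9 residual and 3.28 prior degrees of freedom) and Benjamini-Hochberg adjustment over the 23410 clusters. A gene was called at an adjusted p under 0.05. Single values were also tested by exact two-sided permutation, whose smallest p is 0.0286. Tables were made with Python 3.11.15 and pandas 2.3.3. The fit was tested on simulated data. Promoter letters were shortened at 1 end after a first search with longer ones. Alternatives changed the threshold, normalization, filter, weights, prior, groups fitted and arrays. The genes and lists were chosen with earlier results of these data known. Named genes are the genes described, Pax5, Cd72, Xist and Uty, up to 4 called genes with the smallest adjusted p per pathway list and comparison, and up to 2 per marker list. Other genes named with values in pathway or marker lists (Naip6, Il1b, Il18, Zbp1, Cx3cr1 and Il1rn among them) were chosen after their values were seen. The table gives no detection calls, and the number of arrays limits the precision.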

Additional observations from a re-analysis of the deposited data

How the results depend on the processing

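Alternatives were tried one at a time, and leaving out arrays 1, 3, 5 and 7 or arrays 2, 4, 6 and 8 was chosen after seeing the data. Mlkl and Nlrp3 in all comparisons, Gsdmd in Pax5+/- against WT, Ripk3 in Pax5+/- against WT and in Cd72+/-;Pax5+/- against Pax5+/-, and Pycard in Cd72+/-;Pax5+/- against WT kept direction and call in all 20 that left the threshold at an adjusted p under 0.05. By the 2-fold rule, Mlkl, Nlrp3 and Pycard did not pass in Cd72+/-;Pax5+/- against WT, nor Gsdmd in Pax5+/- against WT, nor Ripk3 in either comparison named. Over all single-gene values, 485 kept both, 29 lost and 10 gained a call, and 10 changed sign. No paired analysis was possible because the titles share no number between groups. Of the 9 genes, an unadjusted p under 0.05 with over 2-fold change gave 2 in Pax5+/- against WT, 0 in Cd72+/-;Pax5+/- against WT (limma, where 7 had an unadjusted p under 0.05) and 2 in Cd72+/-;Pax5+/- against Pax5+/-, and averaging the closest pairs gave 3 in the last. Leaving out each array gave 4 to 6, 3 to 5 and 5 to 5 of the 9 in these comparisons. Of the 57 genes of the other lists, 8, 4 and 10 passed in these comparisons, and leaving out each array gave 5 to 10, 4 to 6 and 8 to 10, the 5 coming without Pax5+/- array 2. In Pax5+/- against WT the other counts were 1 with the 2-fold rule, 5 with only the groups compared, 1 with closest pairs averaged, 5 with the pairs as a random block and 22 without arrays 1, 3, 5 and 7. In Cd72+/-;Pax5+/- against WT they were 12 at an adjusted p under 0.1, 2 with the 2-fold rule, 8 with only the groups compared, 12 with array weights, 2 with closest pairs averaged, 16 without arrays 1, 3, 5 and 7 and 23 without arrays 2, 4, 6 and 8. In Cd72+/-;Pax5+/- against Pax5+/- they were 3 with the 2-fold rule, 3 with closest pairs averaged and 19 without either set of arrays. The counts at an adjusted p under 0.1 and with the 2-fold rule come from the same fit and differ by the threshold alone. Fewer arrays enter the averaged pairs. The fits without 4 arrays keep 1 close pair in the Pax5+/- and WT groups, whose spread is small by construction. The causes of the other shifts were not tested. Sign changes were in values that did not pass. Nlrc4 in Pax5+/- against WT was -0.195 without arrays 2, 4, 6 and 8. In Cd72+/-;Pax5+/- against WT without arrays 1, 3, 5 and 7, Casp4 was 0.03 and Casp8 0.0325, and leaving out each array gave Casp4 -0.0325 to 0.0142 and Casp8 -0.11 to 0.0025. Casp1 in Cd72+/-;Pax5+/- against Pax5+/- was -0.315 without arrays 2, 4, 6 and 8 and -0.15 to 0.21 leaving out each array. The filter on dim clusters removed Casp1 and Casp4, which have no value there.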

Other observations

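Some markers of pro-B stage also differed between the groups. Of 11 measured, 8 did not pass in Pax5+/- against WT, 9 in Cd72+/-;Pax5+/- against WT and 8 between the mutants. Over all clusters 7.47%, 7.78% and 9.79% passed in these comparisons. Dntt, which adds nucleotides at V(D)J junctions, averaged 8.515 ± 0.242 in Cd72+/-;Pax5+/- and 10.86 ± 1.23 in WT (log2 signal, SD, n = 4, log2 change -2.34, limma adjusted p = 0.00515). Between the mutants the Dntt change was -2.12 (limma adjusted p = 0.00809). Cd93, a surface marker of early B-cell stages, rose by 1.27 in Pax5+/- against WT (limma adjusted p = 0.00026) and fell by 0.85 in Cd72+/-;Pax5+/- against Pax5+/- (limma adjusted p = 0.00451). Against WT, Ebf1 rose by 0.315 in Pax5+/- and by 0.25 in Cd72+/-;Pax5+/-. Cd79a fell by 0.33 in Pax5+/- against WT and rose by 0.30 between the mutants. Among 8 T-cell markers, Lat, an adaptor of antigen-receptor signalling, fell by 0.675 in Pax5+/- against WT, where the other 7 did not pass. In Cd72+/-;Pax5+/- against Pax5+/- Lat rose by 0.63 and Cd5 fell by 0.355 (limma adjusted p = 0.0217), and 6 did not pass. All 8 NK-cell markers lay below the median of all clusters in each group. Of 4 measured erythroid markers limma called none in any comparison, with Epor alone at an unadjusted p under 0.05, in Pax5+/- against WT and in Cd72+/-;Pax5+/- against Pax5+/-.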
